A study of Mus musculus with 6 samples.

Results

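The 33 genes described here build and run mitosis, and each was read from 1 probe set of the 45101 on the array. They were listed by gene name, with 1 probe set per gene, by a rule that uses no measured value, although earlier results of these data were known when the list was made: Mki67, Top2a, Ccnb1, Ccnb2, Ccna2, Cdk1, Bub1, Bub1b, Aurka, Aurkb, Plk1, Cdc20, Birc5, Cenpa, Cenpe, Kif11, Kif20a, Ube2c, Pbk, Nusap1, Kif22, Prc1, Nuf2, Cks2, Hmmr, Mad2l1, Ttk, Nek2, Ect2, Tacc3, Ndc80, Spc25 and Racgap1. Total RNA of mouse neutrophils grown from bone marrow of miR-223 null mice (3 arrays) was compared with that of neutrophils grown from wild-type bone marrow (3 arrays). Progenitors of both genotypes spent 6 days in SILAC-IMDM, an isotope-labelling medium, with G-CSF (the cytokine that drives neutrophil production) and SCF (a growth factor for progenitors), followed by 42 hours without SCF, and live neutrophils were then taken with MACS magnetic beads. The labels do not give the mouse strain, age or null allele, or say whether replicates were separate mice or cultures, so p-values measure only the spread between these arrays, which may be technical.

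Neutrophil precursors divide up to the myelocyte stage and then leave the cell cycle for good, so mRNAs of mitosis are found in the dividing precursors and are lost as the cells mature. In dividing cells these mRNAs build up together in G2. Cyclin B with Cdk1 drives entry into mitosis, the spindle checkpoint holds the cell until every kinetochore is attached, and the anaphase-promoting complex, a ubiquitin ligase, then destroys cyclin B and the locks on sister chromatids. miR-223 is an abundant microRNA of the granulocyte lineage whose loss has been linked to altered granulocyte production and reactivity. In RNA pooled from all the selected cells of a sample, fewer dividing cells and less mitotic mRNA per dividing cell cannot be told apart.

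The microRNA that the null cells lack and promoters of the mitosis genes are shown here. The microRNA is the perturbation. The promoters were not used to list the genes, although a motif described below is known from late cell cycle genes. The mature strand of mmu-miR-223-3p (RefSeq, GRCm38.p6, chrX:96242884-96242905, plus strand) is printed with its seed, bases 2 to 8, in capitals.
mmu-miR-223-3p: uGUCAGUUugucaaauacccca
MicroRNA levels were not analysed here, so the loss of miR-223 was not checked on these arrays.

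Promoters from RefSeq (GRCm38.p6), reaching from 250 bases before to 50 bases after the transcript start, matched 29 of the 33 genes by symbol, with 31 promoters because Ect2 and Prc1 have 2 overlapping starts each. The genes without an entry were Ccna2, Aurkb, Kif20a and Pbk. The cell cycle homology region, TTTGAA, is the known landing site of the MuvB complexes that silence late cell cycle genes in resting cells and, with B-Myb and FoxM1, switch them on in G2. The CCAAT box, CCAAT, is bound by NF-Y, which often works beside it. Both motifs were searched on both strands, and the letters of the motifs do not overlap each other. For 7 genes the 100 bases before the transcript start are given 5′ to 3′ on the gene's strand, with every full match of either motif in capitals. On the other strand the first motif reads TTCAAA. The CCAAT box then reads ATTGG. Nek2 and Mad2l1 are shown because their signal was higher in null cells, Ccnb1 because it was lower and has no TTTGAA, and the other 4 because a TTTGAA lies just before their start.
Nek2, chr1:191821373-191821472, plus strand: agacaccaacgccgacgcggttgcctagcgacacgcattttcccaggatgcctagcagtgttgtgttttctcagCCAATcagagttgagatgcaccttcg
Mad2l1, chr6:66535121-66535220, plus strand: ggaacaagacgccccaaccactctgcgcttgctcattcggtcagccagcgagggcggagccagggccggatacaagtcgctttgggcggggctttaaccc
Ccnb1, chr13:100786487-100786586, minus strand: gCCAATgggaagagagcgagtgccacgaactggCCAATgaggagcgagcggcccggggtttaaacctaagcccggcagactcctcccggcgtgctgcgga
Cdc20, chr4:118437344-118437443, minus strand: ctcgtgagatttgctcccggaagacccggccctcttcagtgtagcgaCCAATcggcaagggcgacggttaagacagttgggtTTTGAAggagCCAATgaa
Cdk1, chr10:69352913-69353012, minus strand: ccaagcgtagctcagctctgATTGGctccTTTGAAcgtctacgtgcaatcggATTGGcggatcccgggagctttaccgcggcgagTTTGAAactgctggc
Top2a, chr11:99024190-99024289, minus strand: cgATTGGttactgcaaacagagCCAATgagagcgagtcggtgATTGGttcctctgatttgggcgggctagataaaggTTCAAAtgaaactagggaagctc
Kif11, chr19:37376282-37376381, plus strand: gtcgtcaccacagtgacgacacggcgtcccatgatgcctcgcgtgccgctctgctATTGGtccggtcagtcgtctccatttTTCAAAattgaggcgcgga

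TTTGAA was present in the promoters of 19 of the 29 genes (65.5%), against 20.2% of all 27025 genes in the table and 18.5% of the 17492 protein-coding ones. A CCAAT box was present in 23 of the 29 (79.3%), against 41.1% of all genes and 42.3% of protein-coding genes. The matches to TTTGAA in the mitosis genes clustered at the transcript start. In 18 of the 29 genes (62.1%) a match lay within 50 bases of it, against 5.72% of all genes and 4.58% of protein-coding genes; this window was set after the positions were seen. Counted from the start, with -1 as the last base before it, matches began at -71 and -15 in Cdk1, at -18 in Cdc20, at -19 in Kif11 and at -29 in Ube2c. In Aurka a match began at base 33 of the transcript, in Plk1 at base 31 and in Bub1b at base 41. These matches are descriptions of letters, not of bound sites. The motif is known from late cell cycle genes, so its high share is not independent of the choice of genes. Only the exact letters were searched, so a gene without a match may hold a variant. Over promoters counted singly, 21 of 31 (67.7%) held TTTGAA and 20 of 31 (64.5%) held both motifs, against 17.9% and 6.95% of all 32851.

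**Figure D1:**
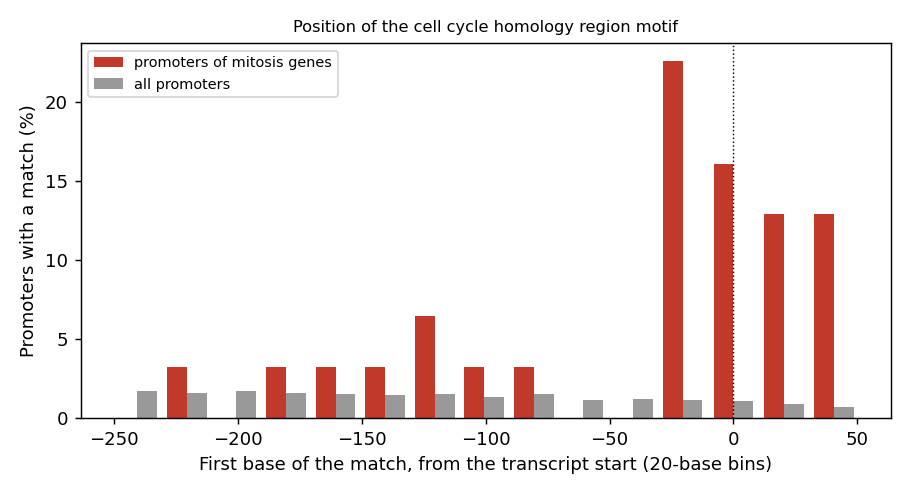
Share of promoters (%) with a TTTGAA match, on either strand, that begins in each 20-base bin from the transcript start, for the 31 promoters of 29 mitosis genes (red) and for all 32851 promoters (grey). In mitosis genes the bins from 30 bases before to 50 bases after the start held 12.9% to 22.6% of promoters each, against 0.734% to 1.16% in all promoters.

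The signals are log2 intensities, already brought to 1 scale, with array medians of 4.71 to 4.72. All 33 probe sets passed the filter on low signal (a mean of at least 4.08 over the 6 arrays, which kept 27022 of 45037 probe sets), and 32 of them were among the 9007 brightest of those kept. The lowest mean of the 33 was that of Nek2 at 7.09. Control probe sets for bacterial sequences, which should find no transcript, averaged 2.77 to 2.86, so each of the 33 probe sets read above these controls in both genotypes. Whether each signal came from the named gene alone was not checked. The brightness of 1 probe set cannot be set against another's. Rows of the deposited table carry probe set identifiers and no gene names, so markers of neutrophils, progenitors and other cell types, and further genes of the cell cycle, were not analysed here, and the share of dividing cells in the cultures was not measured.

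Most mitosis genes differed little between the genotypes. The mean was lower in null arrays for 26 of the 33 and higher for 7, and the median difference, null minus wild type, was -0.12 log2 units, so that null signal was 91.9% of wild-type signal. Over all 27022 probe sets the median was -0.011 and over the 9007 brightest -0.020. Differences ran from -0.28 for Prc1, with null signal at 82.3% of wild type, to 0.49 for Nek2, with null signal at 140% of wild type, and 14 of the 33 were under 0.1 log2 units in size. When 1 array was left out the median ran from -0.16 (without wild-type 2) to -0.06 (without wild-type 1). It was -0.08 without null 3 and -0.09 without null 2.

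None of the 33 passed the test when the arrays were treated as unpaired (limma, Benjamini-Hochberg adjusted p under 0.05 over all 27022 probe sets), where 0.189% of all probe sets passed. The adjusted p ran from 0.16 for Nek2 to 0.984. An unadjusted p under 0.05 (limma) was found for 3 of the 33, Nek2, Prc1 and Kif11, and for 2881 of all 27022 probe sets. The share of the 33 was thus not above that of all probe sets. Deviations of same-numbered arrays ran together in both genotypes. Each null array was therefore also set against the wild-type array of its own number, with the replicate number as a block. The match was clear for replicate 1 only, since wild-type 2 correlated more with null 3 (r = 0.41) than with null 2 (0.30). With the block 8 of the 33 passed (24.2%, against 10.0% of all probe sets). Among the 9007 brightest, which hold 32 of the 33, the share that passed was higher than 10.0%, as the following shares by direction show. Ccnb1, Ccnb2, Pbk, Cenpe, Prc1 and Kif20a fell in null cells (18.2% of the 33, against 5.05% of all probe sets and 9.78% of the 9007 brightest). Mad2l1 and Nek2 rose (6.06%, against 4.96% of all and 9.34% of the 9007 brightest).

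The calls with the block depended on the pairs fitted and on the variance model. None of the 8 passed without the replicate 2 pair (limma adjusted p 0.0764 to 0.193), where 2.24% of all probe sets passed. The 6 falls were then -0.19 to -0.34, against -0.18 to -0.28 with all pairs. The 2 rises were 0.28 and 0.41, against 0.31 and 0.49. None passed without the intensity trend in the variance model (limma adjusted p 0.0694 to 0.191), where 0.707% of all probe sets passed. Mad2l1 and Nek2 alone passed without the replicate 1 pair (7.57% of all probe sets). Without the replicate 3 pair 5 of the 8 passed (8.58% of all probe sets). All 8 kept their direction in these fits.

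**Figure D2:**
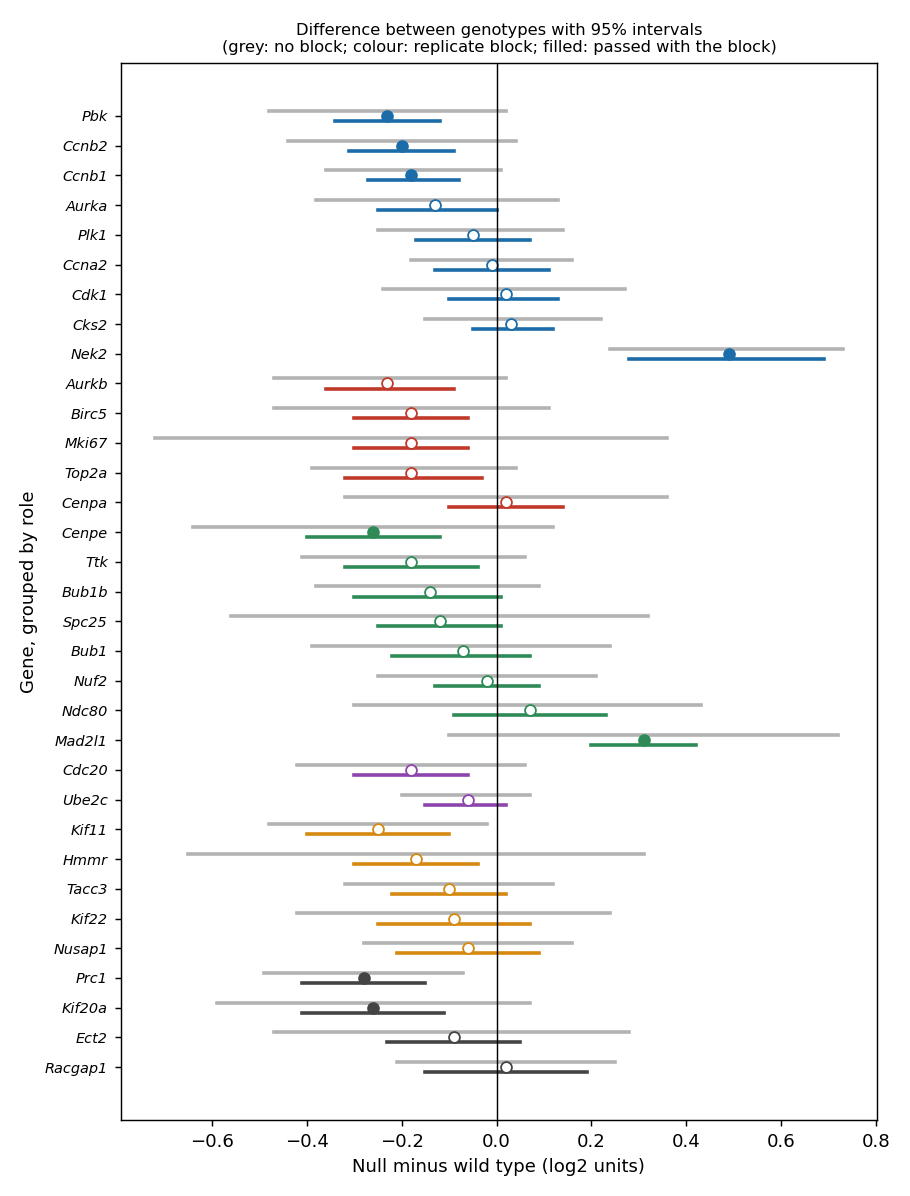
Difference between genotypes (x axis, null minus wild type, log2 units; 3 arrays per genotype) for the 33 mitosis genes (y axis), coloured by role, with 95% intervals without (grey) and with the replicate block (colour). Filled points mark the 8 genes that passed with the block; grey intervals include 0 for 30 of the 33 genes.

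Direction was also counted pair by pair, with the pairing of replicates 2 and 3 not settled. Of the 33 genes, 18 were lower in null in 3 of 3 pairs (54.5%), against 25.0% of all probe sets and 35.0% of the 9007 brightest. Another 3, Mad2l1, Nek2 and Cks2, were higher in 3 of 3 pairs (9.09%, against 21.6% of all probe sets, with the share of the 9007 brightest not counted). The remaining 12 went both ways. In the pair of replicate 1, 25 genes were lower in null, with a median difference over the 33 of -0.12 log2 units. In the pair of replicate 2, 22 were lower, with a median of -0.07, and in that of replicate 3, 28 were lower, with a median of -0.17. Over all probe sets the median was -0.01 in each pair, and 51.7% to 52.5% were lower in null.

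**Figure D3:**
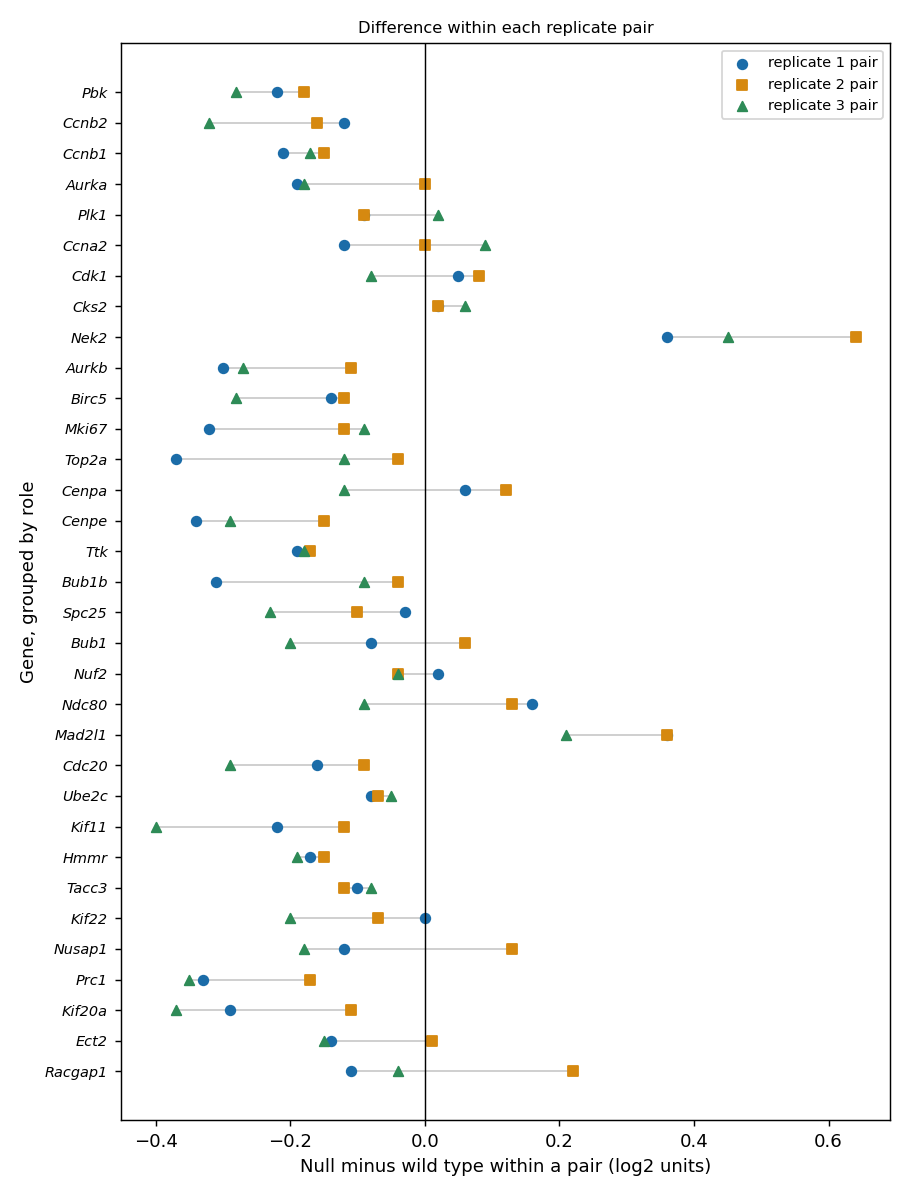
Null minus wild type within each replicate pair (x axis, log2 units) for the 33 mitosis genes (y axis); circles, squares and triangles are the pairs of replicates 1, 2 and 3. All 3 marks lie left of 0 for 18 genes and right of 0 for Mad2l1, Nek2 and Cks2.

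Among the 9 kinases and cyclins of mitotic entry, 3 fell and 1 rose with the block, and 5 did not pass. Ccnb1 (probe set 1448205_AT), the cyclin whose build-up and destruction time mitosis, read 11.00, 10.94 and 10.86 on null arrays 1 to 3 and 11.21, 11.10 and 11.03 on wild-type arrays 1 to 3. All null arrays lay below all wild-type arrays. The difference was -0.18 log2 units (SE 0.04 with the block, limma adjusted p = 0.0373; adjusted p = 0.494 without it). Ccnb2 (probe set 1450920_AT), also a cyclin B gene, read 11.38, 11.17 and 11.05 in null and 11.50, 11.33 and 11.36 in wild type. Null 1 lay above wild-type 2 and 3, so the groups overlapped, while each null array lay below its own pair. The difference was -0.20 (SE 0.05 with the block, limma adjusted p = 0.0441; 0.55 without it).

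Pbk (probe set 1448627_S_AT), a kinase active in mitosis, read 10.53, 10.37 and 10.24 in null and 10.75, 10.55 and 10.52 in wild type. The within-pair differences were close to each other, at -0.22, -0.18 and -0.28. The mean difference was -0.23 (SE 0.05 with the block, limma adjusted p = 0.0245; 0.509 without it), and null signal was 85.3% of wild type. The Pbk probe set carries the suffix S, which the maker gives to probe sets that several transcripts share.

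Nek2 (probe set 1417299_AT), a kinase that parts the centrosomes at mitotic entry, went the other way and by more than any other of the 33. It read 7.23, 7.42 and 7.35 in null and 6.87, 6.78 and 6.90 in wild type. All null arrays lay above all wild-type arrays, as did those of 8.12% of all probe sets, and Nek2 was the only 1 of the 33 (3.03%) to do so. The difference was 0.49 log2 units (95% interval 0.24 to 0.73 without the block, limma adjusted p = 0.16; 0.28 to 0.69 with it, adjusted p = 0.0184). The difference stayed between 0.41 and 0.55 in all fits that omitted 1 array or 1 pair. Its adjusted p was 0.0357 in an unpaired fit without both replicate 1 arrays, a fit chosen after the data were seen.

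Cdk1 (probe set 1448314_AT), the kinase that cyclin B activates, was nearly level between the genotypes. It read 11.02, 10.83 and 10.69 in null and 10.97, 10.76 and 10.77 in wild type. The ranges nearly coincided, and the difference of 0.02 had a 95% interval of -0.24 to 0.27 without the block and -0.10 to 0.13 with it (limma adjusted p = 0.887). Its sign turned in fits without null 1, without wild-type 2 and without wild-type 3. Ccna2, the cyclin of S phase and early mitosis, differed by -0.01, Cks2, a small subunit bound to Cdk1, by 0.03, Plk1, the polo kinase, by -0.05 and Aurka, the centrosomal aurora kinase, by -0.13. None of these passed in either fit. The blocked intervals of Cdk1 and Ccnb1 were -0.10 to 0.13 and -0.27 to -0.08; the difference between the 2 genes was not tested.

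The 5 genes of the chromosomal passenger complex and of mitotic chromatin gave no call in either fit, although 4 were lower in null in 3 of 3 pairs. Aurkb (probe set 1424128_X_AT), the passenger complex kinase, read 9.44, 9.40 and 9.26 in null and 9.74, 9.51 and 9.52 in wild type. The groups did not overlap, and the difference was -0.23 (95% interval -0.36 to -0.09 with the block, limma adjusted p = 0.0535). Its probe set has the suffix X, given to probe sets that may bind other transcripts as well. Birc5, the survivin subunit of the complex, differed by -0.18 (limma adjusted p = 0.0617 with the block).

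Mki67 (probe set 1426817_AT), whose protein coats mitotic chromosomes and serves as the usual marker of dividing cells, varied more between replicates than between genotypes. It read 11.43, 12.03 and 12.27 in null and 11.75, 12.15 and 12.36 in wild type. Both replicate 1 arrays were lowest in their genotype, and the groups overlapped. The difference was -0.18, with a 95% interval of -0.72 to 0.36 without the block and -0.30 to -0.06 with it (limma adjusted p = 0.862 and 0.0713). Null 1 decided the sign of the unpaired value, which was 0.06 without that array, while the value paired by replicate was -0.10 without the replicate 1 pair.

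Top2a (probe set 1454694_A_AT), the topoisomerase that untangles sister chromatids, read 11.56, 11.86 and 11.85 in null and 11.93, 11.91 and 11.97 in wild type. All null arrays lay below all wild-type arrays, with null 1 farthest from them. The difference was -0.18 (limma adjusted p = 0.561 without and 0.117 with the block), and it was -0.08 without the replicate 1 pair. Cenpa, the histone that marks centromeres, differed by 0.02 and went both ways among pairs.

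Among the 8 kinetochore and spindle checkpoint genes, 1 rose, 1 fell and 6 did not pass with the block. Mad2l1 (probe set 1422460_AT), the checkpoint protein that binds and inhibits Cdc20, read 11.62, 11.22 and 11.03 in null and 11.26, 10.86 and 10.82 in wild type. Null 3 lay below wild-type 1, so the groups overlapped, yet each null array was above its own pair, by 0.36, 0.36 and 0.21. The difference was 0.31 log2 units (SE 0.05 with the block), which put null signal at 124% of wild type. It had the lowest blocked adjusted p of the 33 (limma adjusted p = 0.00999; 0.6 without the block, with a 95% interval of -0.10 to 0.72).

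Cenpe (probe set 1435005_AT), the kinesin that carries chromosomes to the spindle equator, read 8.88, 9.32 and 9.35 in null and 9.22, 9.47 and 9.64 in wild type. As for Mki67, the replicate 1 arrays were lowest in both genotypes. The difference was -0.26 (SE 0.06 with the block, limma adjusted p = 0.0376; 0.647 without it). The checkpoint kinases Ttk, Bub1b and Bub1 had lower means in null without passing. Ttk differed by -0.18, with pair differences of -0.19, -0.17 and -0.18, Bub1b by -0.14 and Bub1 by -0.07. Of the Ndc80 complex, which holds microtubules at the kinetochore, the 3 subunits measured differed by 0.07 (Ndc80), -0.02 (Nuf2) and -0.12 (Spc25). Neither the Ndc80 nor the Nuf2 subunit had the same direction in all pairs.

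The anaphase ubiquitin machinery gave 2 genes, both lower in null in 3 of 3 pairs and neither passing. Cdc20 (probe set 1416664_AT), the activator of the anaphase-promoting complex and the target of Mad2l1, read 10.80, 10.67 and 10.50 in null and 10.97, 10.76 and 10.80 in wild type. Null 1 lay above wild-type 2, so the groups overlapped. The difference was -0.18 (95% interval -0.30 to -0.06 with the block, limma adjusted p = 0.0671). Ube2c, the ubiquitin-conjugating enzyme of that complex, differed by -0.06, and its 6 arrays spanned only 11.52 to 11.61.

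None of the 5 spindle motors and spindle-associated genes passed, and all 5 means were lower in null. Kif11 (probe set 1452314_AT), the motor that pushes spindle poles apart, read 9.46, 9.61 and 9.48 in null and 9.68, 9.73 and 9.88 in wild type. The groups did not overlap. The difference was -0.25 (95% interval -0.48 to -0.02 without the block and -0.40 to -0.10 with it, limma adjusted p = 0.435 and 0.0538). Hmmr, which helps to assemble the spindle, differed by -0.17, Tacc3, a spindle microtubule protein, by -0.10, Kif22, a motor on chromosome arms, by -0.09 and Nusap1, which bundles spindle microtubules, by -0.06.

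Of the 4 cytokinesis genes, 2 fell with the block. Prc1 (probe set 1423774_A_AT), which bundles the microtubules between the separating chromosomes, read 9.59, 9.77 and 9.62 in null and 9.92, 9.93 and 9.97 in wild type. All null arrays lay below all wild-type arrays. Its difference of -0.28 was the largest of the lower ones (95% interval -0.49 to -0.07 without the block, limma adjusted p = 0.321; -0.41 to -0.15 with it, adjusted p = 0.025). It stayed between -0.25 and -0.34 in all fits that omitted 1 array or 1 pair.

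Kif20a (probe set 1449207_A_AT), a motor that carries the passenger complex to the midzone, read 9.51, 9.41 and 9.11 in null and 9.80, 9.52 and 9.48 in wild type. Null 1 lay between wild-type 3 and wild-type 2, so the groups overlapped. The difference was -0.26 (SE 0.06 with the block, limma adjusted p = 0.0457; 0.583 without it). Ect2, the exchange factor that starts furrowing through RhoA, differed by -0.09 and its partner Racgap1 by 0.02, both with pairs in either direction. Over the whole set, null arrays lay entirely below wild-type arrays for 8 of the 33 genes (24.2%, against 8.68% of all probe sets). They were Top2a, Ccnb1, Bub1b, Aurkb, Kif11, Ube2c, Prc1 and Ttk. This share was not counted among the 9007 brightest probe sets, which hold 32 of the 33 genes.

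**Figure D4:**
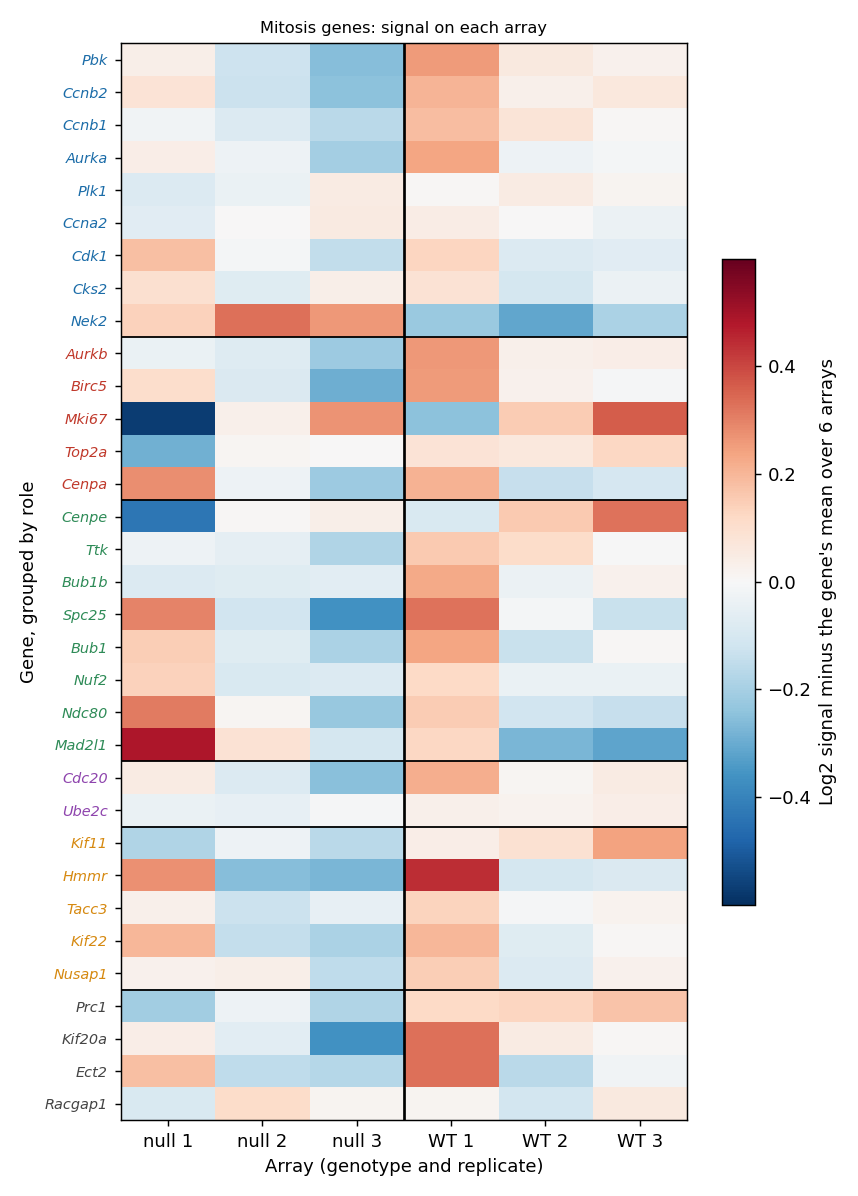
Log2 signal of the 33 mitosis genes (rows, grouped by role, names coloured by role) on each of the 6 arrays (columns), as the departure from that gene's mean over all arrays; red is higher and blue lower. Nek2 is red on all null arrays and blue on all wild-type arrays, and Mki67 and Cenpe are lowest on null 1.

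In these genes the replicate 1 arrays stood apart from the others in both genotypes. Over all 27022 probe sets the deviations of null 1 and wild-type 1 also ran together (r = 0.70), so the shift was not particular to mitosis genes. Its size over all probe sets was not counted. The shift of replicate 1 from the mean of replicates 2 and 3 had a median size of 0.22 log2 units in null and 0.21 in wild type. The difference between genotypes had a median size of 0.14. The mean shift over both genotypes exceeded the genotype difference in 23 of the 33 genes. Within a genotype the shift sets 1 array against 2, while the genotype difference sets 3 against 3, so the shift carries more noise and the sizes are unlike measures. On replicate 1, 22 genes were higher and 6 lower in both genotypes. Hmmr was higher by 0.54 in both, Spc25 by 0.53 in null and 0.40 in wild type, and Mad2l1 by 0.50 and 0.42. Mki67 ran the other way, with shifts of -0.72 in null and -0.51 in wild type, as did Cenpe (-0.45 and -0.34). In each genotype the replicate 1 array thus had the lowest Mki67 signal and the highest signal for Hmmr, Spc25 and Mad2l1. Across the 33 genes the shifts of both genotypes correlated at r = 0.94 (Spearman's rho 0.90), a description over genes that share the same 6 arrays.

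**Figure D5:**
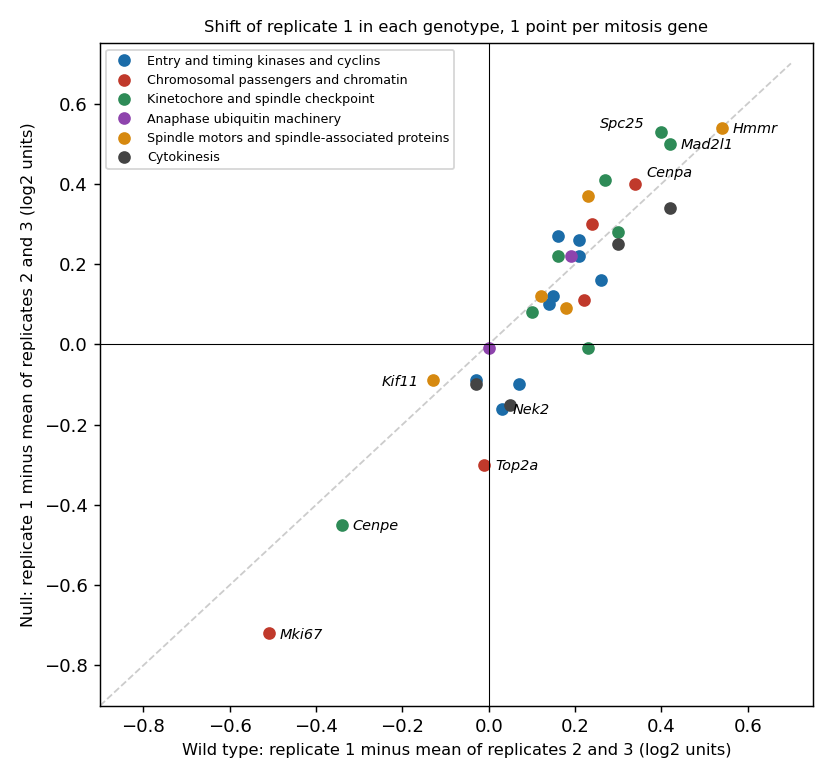
Replicate 1 minus the mean of replicates 2 and 3 (log2 units) in wild type (x axis) and in null (y axis), 1 point per mitosis gene, coloured by role; the dashed line marks equal shifts. Hmmr, Spc25 and Mad2l1 sit at the upper right and Mki67 and Cenpe at the lower left.

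What the replicate number stands for is not given by the labels. For beta-actin, the 3′ probe set minus the 5′ one, in log2 units, serves as a measure of RNA integrity; it was 0.28 and 0.26 on the replicate 1 arrays (null and wild type) and 0.15 to 0.21 on the other 4. That of Gapdh was -0.11 and -0.09 against -0.06 to 0.07. Their part in the shift of replicate 1 was not tested.

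The transferrin receptor, an iron importer that dividing cells and erythroid precursors make in quantity, was the 1 gene of the marker lists that could be named, through 3 control probe sets. Its mean signal was 7.65, 7.56 and 6.83 in null and 7.95, 8.08 and 7.68 in wild type, which gave within-pair differences of -0.30, -0.52 and -0.85 log2 units for replicates 1, 2 and 3. The median difference of the mitosis genes was -0.12, -0.07 and -0.17 in the same pairs. The MACS selection of live neutrophils would reduce other cell types, and how many remained was not measured. Their part in these differences was not tested.

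Genes with and without TTTGAA in the promoter were also set side by side, as a description. The 19 with it had a median difference of -0.13 log2 units, between -0.28 and 0.07, and 15 had lower means in null. The 10 without it, which include both genes that rose, had a median of -0.07, between -0.26 and 0.49, and 7 had lower means. With the block, 2 of the 19 and 4 of the 10 passed, where 10.0% of all probe sets passed. Of the 9007 brightest probe sets 9.78% passed as lower and 9.34% as higher. None of these calls held without the replicate 2 pair or without the intensity trend, and the groups were not compared by a test. Mad2l1 holds neither motif in its promoter window, and Nek2 holds CCAAT boxes only.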

How the data were processed

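Messenger RNA was measured on 6 Affymetrix mouse arrays, 3 per genotype. The authors deposited log2 intensities already on 1 scale, a unit read from their range and nearly equal array medians; the submitters' processing notes name GCOS, and background correction, normalization and probe summary are not given in the sources used here. Groups and replicate numbers came from the sample titles. After 64 control probe sets were set aside, probe sets with a mean over all arrays at or above the 40th percentile (27022 of 45037) were tested, null against wild type, with limma 3.58.1 in R 4.3.3 (lmFit, eBayes with intensity trend, two-sided), and p-values were Benjamini-Hochberg adjusted over all of them. The fit was run on simulated data with known changes as a check of the code only. The shares of changes found and of false calls in that check are not given here. It therefore does not show how reliably differences as small as those of the mitosis genes are called. The number of arrays, 3 per group, limits the precision.

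Deviations from the group mean correlated at r = 0.70, 0.30 and 0.48 between same-numbered arrays, all above 0.1, so arrays were paired by number, on the evidence of the data and not the labels. The cross pairs null 3 with wild-type 2 (0.41) and null 2 with wild-type 3 (0.21) also passed. The first of these exceeded the 0.30 of null 2 with wild-type 2, so the pairing of replicates 2 and 3 is not settled. The replicate number as a block was the alternative. Others changed the filter, normalization, variance trend or arrays used.

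Values on every array were printed for genes that passed in either fit, for the gene with the largest difference of each role, and for Mki67, Cdk1, Ccnb1 and Top2a. The rule for the 33 genes uses no measured value, but these genes, like the related lists, were chosen with earlier results of these data known, so their choice was not independent of the data. Planned counts for related gene lists, cell type markers and further probe sets of these genes were not run, since probe sets other than the 33 and the controls were not named.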

Additional observations from a re-analysis of the deposited data

How the results depend on the processing

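An unadjusted p under 0.05 (limma) was found without the block for 3 of the 33 and 2881 of all 27022 probe sets. Without the block, 51 probe sets and 0 mitosis genes passed. With the replicate block 2703 and 8 passed, without the 2 replicate 1 arrays 1072 and 1, and with a block of replicate 1 against the others 2417 and 8; the last 2 fits were chosen after seeing the data. Leaving out 1 array gave 0 to 58 probe sets, 0 mitosis genes each time, and a median difference of the mitosis genes of -0.16 to -0.06. The filters, quantile normalization, median centring and the fit without trend left 38 to 60 probe sets and 0 mitosis genes. With the block, dropping the intensity trend left 191 probe sets and 0 mitosis genes. In that fit 13 of the 33 and 6213 of all 27022 probe sets had an unadjusted p under 0.05 (limma). Leaving out a pair left 606 (without replicate 2) to 2319 probe sets and 0 (without replicate 2), 2 (without replicate 1) or 6 mitosis genes (without replicate 3). The blocked count of mitosis genes was 7 with no filter, where 5.45% of all probe sets passed. It was 10 with the 60th percentile filter (added after seeing the data), where 16.9% of the probe sets kept passed. After quantile normalization it was 6 (9.48% of all kept) and after centring 8 (9.42%). The cause of these changes was not tested. The median difference was -0.12 in every setting that kept all arrays. Of the 14 genes given on every array, 12 kept their sign throughout. Mki67 ran from -0.36 to 0.06 when 1 array was left out, positive only without null 1, and Cdk1 from -0.07 to 0.10. Cdk1 was 0.00 without the replicate 1 arrays, with or without the block, and -0.02 with the block without the replicate 2 pair. Alternatives for related lists were not run, as probe sets were not paired with genes. Every one of the 33 signals lay well above the bacterial controls, and the number of arrays, 3 per group, limits the precision.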
